A study of Mus musculus with 6 samples.

Results

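The T cell receptor (TCR) and the proteins that carry its first signals were followed as 41 genes, picked by name for their place in the pathway and found by symbol among the 26286 genes of both deposited count tables. They comprise the CD3 chains and coreceptors, kinases, adaptors, phosphatases, and the calcium, Ras and NF-kB branches. The cells were CD4+ CD25high regulatory T cells (Treg) of C57BL/6 mice in which green fluorescent protein (GFP) reports on Blimp-1, the transcriptional repressor encoded by Prdm1. All sample titles, those of GFP- cells included, begin with BlimpHet, a term the labels leave unexplained. Age and sex are not stated. Spleens and lymph nodes were pooled, and Treg were sorted into reporter-positive (GFP+) and reporter-negative (GFP-) cells. RNA sequencing gave 3 GFP+ libraries (libraries 19, 1 and 4, each called here by the number in its title) and 3 GFP- libraries (libraries 20, 2 and 5). GFP+ library 19 and GFP- library 20 were made by poly(A) selection, the other 4 by an amplification protocol devised for single cells and applied here to RNA of sorted populations. The study's design calls the 3 samples of a population biologically independent.

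The TCR has no enzymatic activity of its own. It signals through CD3 chains and the CD247 (zeta) chain, whose tyrosine motifs are phosphorylated by Lck and then bound by the kinase Zap70. Zap70 phosphorylates the scaffold Lat and the adaptor Lcp2 (SLP-76), on which phospholipase C gamma 1 assembles. Its products open the calcium, calcineurin and NFAT branch and, through diacylglycerol, the Ras and protein kinase C theta branches, while phosphatases and ubiquitin ligases limit the signal. Treg depend on TCR signals for their development and for their effector state.

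Of the 41 genes, 31 had enough counts in both protocols to be tested. Another 9 (Cd3d, Cd3e, Cd3g, Csk, Pag1, Bcl10, Nfatc3, Ppp3ca and Ptpn22) had 0 counts in all 4 single-cell protocol libraries and are described from the poly(A) pair only, with no replicate check. They lie on chromosomes 3, 8 and 9, on which 2, 0 and 0 genes had any single-cell protocol count, against 900, 929 and 1022 genes with poly(A) counts. Cd247, on chromosome 1, did not pass the filter on low counts. It had 9769 counts in GFP+ library 19 and 10553 in GFP- library 20, but 1, 2, 0 and 0 in GFP+ libraries 1 and 4 and GFP- libraries 2 and 5. Its length was 7385 bases in the poly(A) table and 3000 bases in the single-cell protocol table. This was not particular to Cd247, since all 20 of the 41 genes above 3000 bases in the poly(A) table had 3000 bases there. Among them Ptprc (5664 bases) had 19464 counts in GFP+ library 1. Zeros in the 4 single-cell protocol libraries are therefore no measure of expression for Cd247 and the 9 genes named above.

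The libraries held 28354321, 17539208 and 17601420 counts in GFP+ libraries 19, 1 and 4, and 27221562, 16317061 and 15224051 counts in GFP- libraries 20, 2 and 5. Genes that define Treg were present in both populations, with Foxp3 at 1162 to 2474 CPM (read counts relative to library size, scaled by TMM) in GFP+ and 1034 to 2083 CPM in GFP- libraries. They were not all alike, since of 7 tested Treg markers 1 was higher and 1 lower in GFP+ libraries. Their summed levels were 2944 to 13098.5 CPM in GFP+ and 3125 to 5688 CPM in GFP- libraries. Markers of macrophages were higher in GFP+ libraries for 17 of 17 tested genes, with summed levels of 1407 to 2214 CPM in GFP+ and 61.8 to 76.3 CPM in GFP- libraries and none of the 20 markers at 0 counts in either population. General T cell genes outside the 41 fell for 3 of 8 tested genes and rose for none, with summed levels of 2399 to 3762 CPM in GFP+ and 3040 to 7247 CPM in GFP- libraries. Markers of B cells rose for 1 of 6 tested genes, with sums of 82.2 to 290 CPM in GFP+ and 59.1 to 167 CPM in GFP- libraries. Dendritic cell markers rose for 2 of 4 tested genes (sums of 21.9 to 42.3 CPM in GFP+ and 14.0 to 25.1 CPM in GFP- libraries), and plasma cell markers for 1 of 5 (99.1 to 388 CPM in GFP+ and 72.0 to 175 CPM in GFP- libraries). Markers of CD8 T cells fell for 1 of 2 tested genes (11.7 to 43.3 CPM in GFP+ and 15.5 to 64.9 CPM in GFP- libraries), and those of NK cells for 1 of 3 (6.09 to 14.6 CPM in GFP+ and 9.79 to 12.5 CPM in GFP- libraries). Erythroid markers rose for 1 of 3 tested genes and varied widely, with sums of 51.8 to 895 CPM in GFP+ and 18.2 to 315 CPM in GFP- libraries. The part of these other cells in the results below was not tested. In bulk RNA, fewer T cells in a sorted population and less RNA of a gene per T cell cannot be told apart.

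All 41 genes were detected in both poly(A) libraries, where levels can be compared between genes per length. They spanned 0.785 to 723 CPM per kilobase in GFP+ library 19 and 1.61 to 501 CPM per kilobase in GFP- library 20. Highest in both was Ptprcap, a small membrane protein that associates with the phosphatase CD45, at 723 CPM per kilobase in GFP+ and 501 in GFP- cells. Lat, Lck, Cd3e, Cd5 and Cd3g held the next places in both libraries, at 234 to 326 CPM per kilobase in GFP+ and 249 to 356 in GFP- cells. At the low end stood Sos1, an exchange factor that loads Ras, at 1.22 CPM per kilobase in GFP+ and 1.61 in GFP- cells. Themis, an adaptor of T cells, had 0.785 CPM per kilobase in GFP+ and 2.74 in GFP- cells, the lowest of the 41 in GFP+ cells. With 1 library per population, no neighbours in this order can be said to differ.

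**Figure D1:**
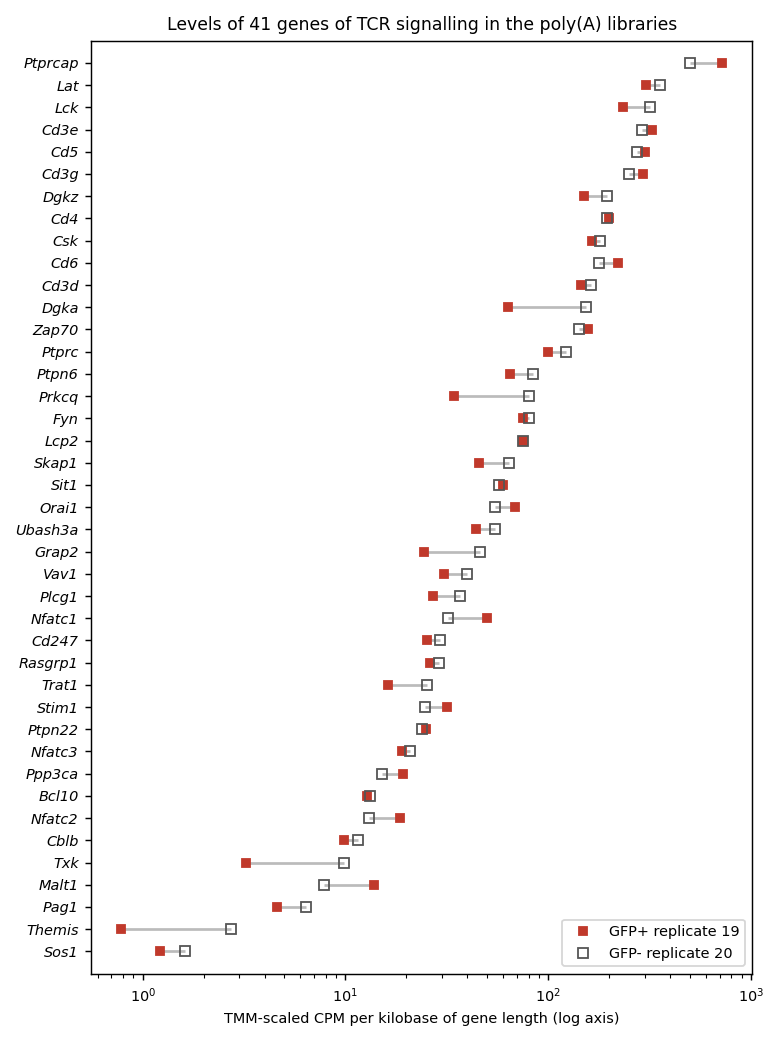
Levels of the 41 genes in the poly(A) libraries, as TMM-scaled CPM per kilobase of gene length on a log axis, with filled red squares for GFP+ library 19 and open grey squares for GFP- library 20. Most pairs of squares lie close together, while Themis, Txk, Prkcq and Dgka lie further to the left in GFP+ cells.

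Most genes of the pathway did not pass the test between populations. Of the 31 tested, Themis, Txk and Prkcq were lower and Malt1 higher in GFP+ Treg, and 27 did not pass. The test was edgeR's quasi-likelihood test with the protocol as covariate on all 6 libraries, with Benjamini-Hochberg adjustment over 10523 genes at 0.05. Among all tested genes 9.81% were higher and 3.68% lower, beside 1 of 31 (3.23%) higher and 3 of 31 (9.68%) lower here. With libraries scaled to 8 general T cell genes in place of TMM, 2845 genes were higher and 164 lower over all genes, against 1032 and 387 with TMM, which is 27% and 1.56% of all tested genes, beside 5 and 2 of the 31. The number of the 31 genes called lower was 1 without GFP+ library 1 (1.78% of all tested genes) and 6 without GFP- library 5 (7.51%). None was called higher without GFP+ library 19 (5.34% of all tested genes), 1 (6.49%) or 4 (7.63%) or without GFP- library 20 (5.55%). With the protocol as covariate, a poly(A) library left alone has no influence on the population effect. Fits without library 19 and without library 20 thus compare the same 4 single-cell protocol libraries and are not separate checks, here and below. The log2 fold changes of the 31 genes had a median of -0.21 with quartiles of -0.45 and 0.22, beside a median of -0.08 with quartiles of -0.41 and 0.34 over all tested genes. Within 0.5 on the log2 scale lay 64.5% of the 31 genes and 60.3% of all tested genes. Standard errors of the 31 genes ran from 0.22 to 0.46, so a change of the size seen in most of them was not detectable with these libraries.

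**Figure D2:**
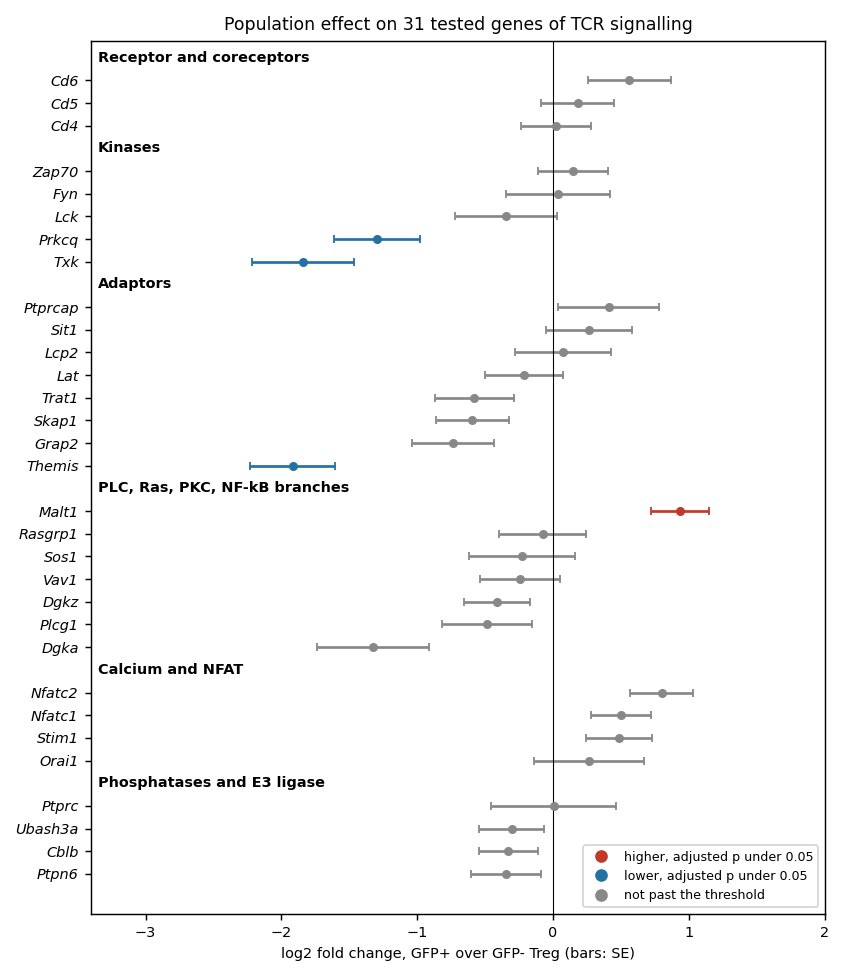
Log2 fold changes of the 31 tested genes, GFP+ over GFP- Treg, grouped by role, with standard errors as bars. Blue points (Themis, Txk, Prkcq) were lower and the red point (Malt1) higher at an adjusted p under 0.05, and the 27 grey points did not pass.

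The chains of the receptor were at similar levels in both populations of the poly(A) pair. Cd3e had 468 CPM in GFP+ library 19 and 417 CPM in GFP- library 20, a log2 ratio of 0.17 (95% interval 0.14 to 0.19, exact binomial, counting error only). Cd3g had 301 CPM in GFP+ and 255 CPM in GFP- cells (0.24, interval 0.20 to 0.27). Cd3d had 193 CPM in GFP+ and 217 CPM in GFP- cells (-0.16, interval -0.20 to -0.13). The zeta chain Cd247, at 187 CPM in GFP+ and 216 CPM in GFP- cells, had a ratio of -0.21 (interval -0.25 to -0.17). None of the 9 genes measured by poly(A) selection alone differed 2-fold, while 21.3% of 15639 genes did so in this pair (13.6% higher and 7.72% lower in GFP+ cells). That share includes genes with as few as 10 summed counts, where counting error alone can reach 2-fold. Each of the 9 had at least 898 counts in each poly(A) library. Their median log2 ratio was -0.06, beside -0.10 over the 15639 genes. Scaled to 10 general T cell genes, all 9 and Cd247 had ratios above 0, from 0.04 for Pag1 to 0.83 for Ppp3ca, so the direction of Cd3d and Cd247 depends on the scaling.

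Coreceptors were measured in all 6 libraries, and none passed the test. Cd4, which binds MHC class II and brings Lck to the receptor, had 617, 358 and 322 CPM in GFP+ libraries 19, 1 and 4, against 603, 295 and 379 CPM in GFP- libraries 20, 2 and 5. The populations overlapped, at a log2 fold change of 0.02 ± 0.25 (SE, n = 3 each; edgeR adjusted p = 0.970). Cd5, a receptor of the scavenger family that dampens TCR signals, had 621, 1016 and 908 CPM in GFP+ and 569, 749 and 915 CPM in GFP- libraries (0.18 ± 0.27, adjusted p = 0.717). Its relative Cd6, a receptor for CD166, had 671, 1483 and 947 CPM in GFP+ and 540, 813 and 699 CPM in GFP- libraries. Each GFP+ library lay above the GFP- libraries of its protocol for Cd6, yet the fold change of 0.56 ± 0.30 did not pass (adjusted p = 0.281). It passed with scaling to general T cell genes (1.16, adjusted p = 0.0234). Such a lack of overlap was common, since 21.3% of all tested genes had every GFP+ library above, and 19.3% every GFP+ library below, the GFP- libraries of its protocol. Among the 31 genes these counts were 5 and 8.

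Among the kinases, those that start the signal did not pass, while Txk and Prkcq fell in GFP+ Treg. Lck, the Src family kinase that phosphorylates the CD3 chains, had 537, 3239 and 1632 CPM in GFP+ libraries 19, 1 and 4, against 731, 3659 and 2337 CPM in GFP- libraries 20, 2 and 5 (log2 fold change -0.35 ± 0.38, edgeR adjusted p = 0.604). Fyn, its relative, had 278, 543 and 254 CPM in GFP+ and 297, 499 and 243 CPM in GFP- libraries (0.04 ± 0.38, adjusted p = 0.967). Zap70, which binds the phosphorylated chains, had 344, 476 and 532 CPM in GFP+ and 311, 390 and 521 CPM in GFP- libraries (0.15 ± 0.26, adjusted p = 0.765). For Lck, Fyn and Zap70 the populations overlapped in the single-cell protocol libraries, and with scaling to general T cell genes Lck had a value of 0.25. Csk, which phosphorylates the inhibitory tail tyrosine of Lck, had 374 CPM in GFP+ library 19 and 411 CPM in GFP- library 20 (log2 ratio -0.14).

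Txk is a kinase of the Tec family, which act on phospholipase C gamma. It had 7.58, 13.0 and 12.4 CPM in GFP+ libraries 19, 1 and 4, against 23.1, 73.4 and 24.9 CPM in GFP- libraries 20, 2 and 5. Every GFP+ library lay below every GFP- library, also across protocols, and the highest value was that of GFP- library 2. The log2 fold change was -1.84 ± 0.37 (SE, n = 3 each; edgeR adjusted p = 0.0123), and -1.29 without GFP- library 2 (adjusted p = 0.0121). The call was lost without GFP+ library 1 (-1.82, adjusted p = 0.0872).

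Prkcq encodes protein kinase C theta, which links diacylglycerol to NF-kB in T cells. It had 113, 96.9 and 62.7 CPM in GFP+ libraries 19, 1 and 4, against 268, 263 and 137 CPM in GFP- libraries 20, 2 and 5. All GFP+ values lay below all GFP- values, with a log2 fold change of -1.30 ± 0.32 (SE, n = 3 each; edgeR adjusted p = 0.0279). The call was lost without GFP+ library 19 (adjusted p = 0.142), GFP+ library 1 (0.0725), GFP+ library 4 (0.120) or GFP- library 20 (0.128). The fits without library 19 and without library 20 compare the same 4 single-cell protocol libraries and are not separate checks. With scaling to general T cell genes the fold change was -0.69 (adjusted p = 0.109).

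Themis was the adaptor that fell. It binds Grb2 and phosphatases and is known for its part in T cell selection in the thymus. In GFP+ libraries 19, 1 and 4 it had 3.13, 1.31 and 1.71 CPM (163, 17 and 25 counts), against 10.9, 7.65 and 4.30 CPM (533, 112 and 36 counts) in GFP- libraries 20, 2 and 5. No GFP+ library reached the lowest GFP- library. The log2 fold change of -1.92 ± 0.31 (SE, n = 3 each; edgeR adjusted p = 0.00411) was the lowest of the 31 genes. It passed without any 1 of the 6 libraries, with values from -2.07 to -1.69. Of these fits, those without library 19 and without library 20 compare the same 4 single-cell protocol libraries.

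**Figure D3:**
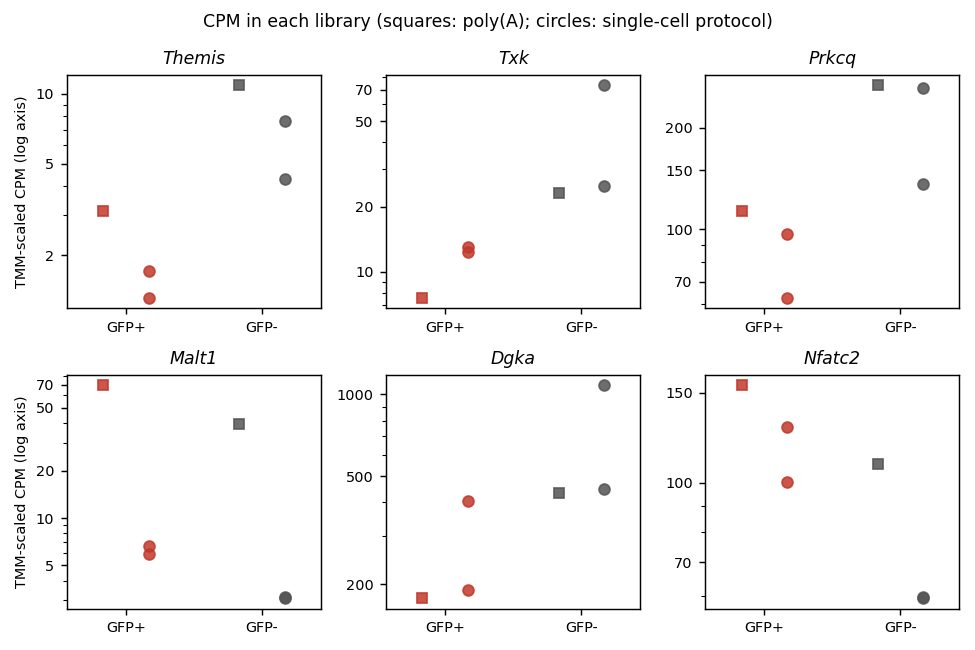
TMM-scaled CPM of 6 genes in each library on log axes, GFP+ (red) left of GFP- (grey), with squares for poly(A) and circles for single-cell protocol libraries. In Themis, Txk and Prkcq every red point lies below every grey point, and in Malt1 and Nfatc2 each red point lies above the grey points of its own protocol, as it lies below them in Dgka.

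The promoters of the 3 genes that fell are shown for comparison of their letters. Each line is the RefSeq window of build GRCm38.p6 from 250 bases before to 50 bases after the first listed transcript start, read on the gene's strand: Themis at chr10:28668110-28668409 (plus strand), Txk at chr5:72752728-72753027 (minus strand) and Prkcq at chr2:11172132-11172431 (plus strand). The counts were made on build mm9, and the windows were not matched to reads. Capitals mark matches on either strand to GTGAAAG or GCGAAAG (the core bound by Blimp-1), CTTTGA (TCF and LEF factors), TGTGGT (RUNX factors) and AGGAAGT (ETS factors).
Themis: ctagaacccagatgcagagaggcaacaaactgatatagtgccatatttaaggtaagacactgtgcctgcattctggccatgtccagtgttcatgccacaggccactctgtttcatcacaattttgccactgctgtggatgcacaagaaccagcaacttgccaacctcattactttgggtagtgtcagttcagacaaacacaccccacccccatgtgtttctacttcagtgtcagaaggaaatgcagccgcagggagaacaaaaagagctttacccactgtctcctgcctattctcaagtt
Txk: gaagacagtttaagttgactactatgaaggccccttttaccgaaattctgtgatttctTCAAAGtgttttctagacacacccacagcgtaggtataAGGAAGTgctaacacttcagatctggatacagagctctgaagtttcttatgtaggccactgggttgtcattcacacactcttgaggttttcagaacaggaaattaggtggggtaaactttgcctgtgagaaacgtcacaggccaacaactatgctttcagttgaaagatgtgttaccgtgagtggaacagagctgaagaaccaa
Prkcq: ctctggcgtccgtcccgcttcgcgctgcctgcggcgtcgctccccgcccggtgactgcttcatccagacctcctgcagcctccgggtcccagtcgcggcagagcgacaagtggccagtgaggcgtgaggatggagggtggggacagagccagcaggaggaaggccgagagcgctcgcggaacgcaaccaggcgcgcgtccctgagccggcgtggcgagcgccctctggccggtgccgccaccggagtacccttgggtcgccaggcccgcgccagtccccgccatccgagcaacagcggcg
Txk held 1 match to CTTTGA, on the opposite strand, and 1 to AGGAAGT, which did not overlap, while Themis and Prkcq held no match. Among all 32851 windows, GTGAAAG stood in 4.24%, GCGAAAG in 1.55%, CTTTGA in 16.0%, TGTGGT in 16.8% and AGGAAGT in 9.35%. Of the 41 genes, 33 had a window. In their first windows AGGAAGT stood in 12 (36.4%), among them Cd3d, Cd3e, Cd247, Lck and Cd5, and CTTTGA in 10 (30.3%). TGTGGT stood in 4 (12.1%), GCGAAAG in 1 (Ptpn22, 3.03%) and GTGAAAG in 0. The 32851 windows can hold more than 1 per gene, while the 33 genes count 1 window each. The shares are thus no matched comparison, and enrichment was not tested.

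The other adaptors did not pass. Lat, the scaffold that Zap70 phosphorylates, had 375, 1513 and 1291 CPM in GFP+ libraries 19, 1 and 4, against 439, 1389 and 1852 CPM in GFP- libraries 20, 2 and 5 (log2 fold change -0.21 ± 0.29, edgeR adjusted p = 0.686). Lcp2, which holds Vav1 and phospholipase C at Lat, had 252, 526 and 305 CPM in GFP+ and 252, 524 and 247 CPM in GFP- libraries (0.07 ± 0.35, adjusted p = 0.928). For both genes the populations overlapped. Grap2 (Gads), the bridge between Lat and Lcp2, had 71.4, 9.33 and 4.85 CPM in GFP+ and 135, 13.5 and 8.36 CPM in GFP- libraries (-0.74 ± 0.31, adjusted p = 0.162). It passed without GFP- library 5 (-0.92, adjusted p = 0.0443). Skap1, an adaptor of integrin activation, had 99.3, 721 and 735 CPM in GFP+ and 140, 982 and 1298 CPM in GFP- libraries, each GFP+ value below the GFP- values of its protocol (-0.60 ± 0.27, adjusted p = 0.198). Trat1, which associates with the receptor complex, had -0.58 ± 0.29 (adjusted p = 0.25), and passed without GFP- library 5 (-0.80, adjusted p = 0.0444). The membrane adaptor Sit1 had 0.26 ± 0.32 and Ptprcap 0.41 ± 0.37. Pag1, which anchors Csk at the membrane, had 17.2 CPM in GFP+ library 19 and 23.7 CPM in GFP- library 20 (log2 ratio -0.46).

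In the branches downstream of Lat, Malt1 rose in GFP+ Treg. Malt1 is a protease and scaffold that acts with Bcl10 on the way to NF-kB. It had 69.5, 5.94 and 6.63 CPM in GFP+ libraries 19, 1 and 4, against 39.4, 3.14 and 3.10 CPM in GFP- libraries 20, 2 and 5. Each GFP+ library lay above the GFP- libraries of its protocol, and replicates of the single-cell protocol lay close together. The log2 fold change was 0.93 ± 0.22 (SE, n = 3 each; edgeR adjusted p = 0.0214). The call was lost without GFP+ library 19 (adjusted p = 0.226), GFP+ library 1 (0.0631), GFP+ library 4 (0.0951) or GFP- library 20 (0.207), and with scaling to total counts (0.0831). The fits without library 19 and without library 20 are again the same comparison of single-cell protocol libraries. Bcl10, its partner, had 22.5 CPM in GFP+ library 19 and 23.4 CPM in GFP- library 20 (log2 ratio -0.06, interval -0.18 to 0.06).

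Diacylglycerol kinases end the signal that Prkcq and Rasgrp1 read. Dgka had 178, 407 and 192 CPM in GFP+ libraries 19, 1 and 4, against 434, 1076 and 448 CPM in GFP- libraries 20, 2 and 5. Every GFP+ value lay below every GFP- value, but replicates of a population differed by more than 2-fold, and the log2 fold change of -1.33 ± 0.41 missed the threshold (edgeR adjusted p = 0.0717). It passed with DESeq2 (-1.34, adjusted p = 0.00823), with total counts (-1.35, 0.00513), without the filter on low counts (-1.33, 0.0228) and without GFP- library 5 (-1.61, 0.00858). It did not pass with RLE size factors (-1.34, adjusted p = 0.0687), upper-quartile scaling (-1.35, 0.057) or scaling to general T cell genes (-0.72, 0.186). Nor did it pass with limma-voom (-1.28, adjusted p = 0.0781), the deposited log2 RPKM values (-1.47, 0.054) or without the protocol covariate (-1.34, 0.794). The call was also absent without GFP- library 2 (-0.91, adjusted p = 0.15) and without any 1 of the other 4 libraries. Dgkz, the second isoform, had 653, 145 and 137 CPM in GFP+ and 853, 176 and 205 CPM in GFP- libraries (-0.41 ± 0.24, adjusted p = 0.323). Rasgrp1, the diacylglycerol-activated exchange factor of Ras, had -0.08 ± 0.32, Sos1 -0.23 ± 0.39, Vav1, an exchange factor of Rac, -0.24 ± 0.30, and Plcg1, the phospholipase, -0.49 ± 0.33. None of these passed (adjusted p from 0.323 to 0.913), and with scaling to general T cell genes Dgkz, Rasgrp1, Sos1, Vav1 and Plcg1 had values above 0.

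Of the 41 genes, the 4 tested ones of the calcium and NFAT branch had positive fold changes, with a median of 0.49, but none passed. This is no direction of the branch as a whole. Among the 96 further genes described below, others of the branch went both ways. Stim2 was lower (-0.84), while Ppp3cc (-0.63), Orai2 (-0.39) and Orai3 (0.76) did not pass. Nfatc2, a calcium-dependent transcription factor that cooperates with Foxp3, had 155, 129 and 101 CPM in GFP+ libraries 19, 1 and 4, against 109, 59.5 and 59.7 CPM in GFP- libraries 20, 2 and 5. Each GFP+ library lay above the GFP- libraries of its protocol, and the log2 fold change of 0.80 ± 0.23 fell short of the threshold (edgeR adjusted p = 0.0574). It passed with DESeq2 (0.76, adjusted p = 0.0172), limma-voom (0.82, 0.0415) and the deposited log2 RPKM values (0.66, 0.0367). With edgeR it also passed with upper-quartile scaling (0.79, 0.0497) and scaling to general T cell genes (1.40, 0.00335). It did not pass with RLE size factors (0.76, adjusted p = 0.079), total counts (0.88, 0.0928) or without the filter on low counts (0.80, 0.0601). Nor did it pass without any 1 of the 6 libraries (adjusted p from 0.0834 to 0.245). Nfatc1, which is itself induced by TCR signals, had 372, 76.7 and 81.2 CPM in GFP+ and 239, 58.8 and 58.5 CPM in GFP- libraries (0.50 ± 0.22, adjusted p = 0.192). Stim1, the calcium sensor of the endoplasmic reticulum, had 114, 70.7 and 94.6 CPM in GFP+ and 88.7, 46.9 and 65.9 CPM in GFP- libraries (0.49 ± 0.24, adjusted p = 0.244). For these genes too each GFP+ library lay above the GFP- libraries of its protocol. Orai1, the channel that Stim1 opens, had 0.26 ± 0.40 with overlapping populations. In the poly(A) pair Nfatc3 had 114 CPM in GFP+ and 125 CPM in GFP- cells (log2 ratio -0.13), and Ppp3ca, the catalytic subunit of calcineurin, 42.0 CPM in GFP+ and 33.4 CPM in GFP- cells (0.33).

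Phosphatases and ubiquitin pathway regulators did not pass. Ptprc encodes CD45, which removes the inhibitory phosphate from Lck. It had 562, 1501 and 631 CPM in GFP+ libraries 19, 1 and 4, against 697, 1386 and 521 CPM in GFP- libraries 20, 2 and 5 (log2 fold change 0.00 ± 0.46, edgeR adjusted p = 0.997). Within the single-cell protocol the replicates of each population lay more than 2-fold apart and the populations overlapped. The direction of this spread, at differences of any size, was found in 16 of the 31 genes. These were higher in GFP+ library 1 than in 4 and in GFP- library 2 than in 5, as were 33.1% of all tested genes with counts in these libraries. Ptpn6 (SHP-1), a phosphatase found in all white blood cells, had -0.35 ± 0.26, the ubiquitin ligase Cblb -0.33 ± 0.22, and Ubash3a (STS-2), a suppressor of TCR signalling, -0.31 ± 0.24. Their adjusted p ran from 0.383 to 0.466, and scaling to general T cell genes gave all of them values above 0. Ptpn22, which dephosphorylates Lck and Zap70, had 68.2 CPM in GFP+ library 19 and 64.9 CPM in GFP- library 20 (log2 ratio 0.07, interval 0.00 to 0.14).

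The protocols, which share no library, gave similar values for the 31 genes. The log2 ratio of the poly(A) pair and the mean log2 ratio of the single-cell protocol libraries had the same sign for 26 of 31 genes, with a Pearson correlation of 0.960 across genes (Spearman 0.914, given as a description, since genes are no replicates). The same measures over all tested genes are not given here, so this likeness is not shown to be particular to the 31. Themis had a ratio of -1.80 in the poly(A) pair and -1.94 in the single-cell protocol libraries, Txk -1.61 and -1.75, Prkcq -1.24 and -1.28, and Malt1 0.82 and 1.01. These genes were called in a fit of both protocols together, so their likeness was partly set by that choice and is no separate check. Of the 41 genes, 4 differed 2-fold in the poly(A) pair, and these were Themis, Txk, Dgka and Prkcq, all lower in GFP+ cells. Among 15639 genes with at least 10 summed counts 21.3% differed 2-fold, 13.6% higher and 7.72% lower in GFP+ cells. Only the share that was lower is close to that of all genes, and none of the 41 was 2-fold higher. A test of whether the effect of the population differed between protocols called 0 of 31 genes with edgeR's quasi-likelihood test, and 0 also at an unadjusted p under 0.05 (0 and 24 of all 10523 tested genes, 0.228%). With 2 residual degrees of freedom this test could miss real differences.

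**Figure D4:**
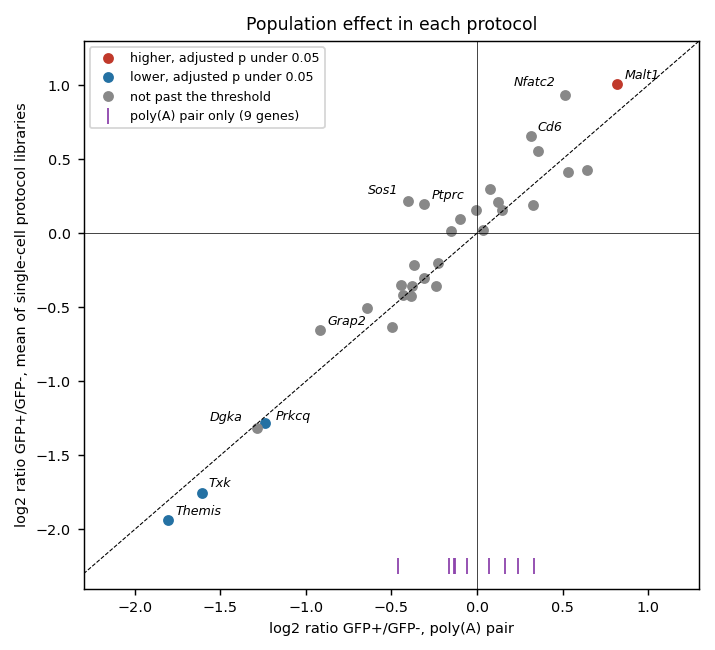
Log2 ratio of GFP+ over GFP- Treg in the poly(A) pair (horizontal axis) against the single-cell protocol libraries (vertical axis) for 31 genes, with a dashed line where both are equal. Themis, Txk, Prkcq and Dgka lie at the lower left and Malt1 at the upper right, and purple ticks mark the ratios of the 9 genes measured in the poly(A) pair only, from -0.46 to 0.33.

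How libraries are scaled sets the zero of these fold changes. With RLE size factors, upper-quartile scaling or total counts the median over all tested genes lay between -0.11 and 0.01, close to the -0.08 with TMM. Scaling to 8 general T cell genes put it at 0.53 and the median of the 31 genes at 0.39. Under that scaling Themis (-1.30, adjusted p = 0.0151) and Txk (-1.22, 0.0328) remained lower, and Malt1 (1.54, 0.00154), Nfatc2 (1.40, 0.00335), Cd6, Nfatc1 and Stim1 were higher (edgeR, Benjamini-Hochberg). Among the 31 genes 1 higher and 3 lower with RLE (background 9.3% and 4.11%), 2 higher and 3 lower with upper-quartile scaling (background 9.8% and 3.6%), 0 higher and 4 lower with total counts (background 10.2% and 2.68%) and 1 higher and 4 lower without the filter (background 9.05% and 3.75%) were called, where the background is the share of all tested genes. Other models called 2 higher and 4 lower with DESeq2 (background 11.4% and 6.79%), 2 higher and 3 lower with limma-voom (background 10.2% and 4%), 2 higher and 3 lower with limma on log2 RPKM (background 8.76% and 5.19%) and 0 higher and 0 lower without the covariate (background 1.09% and 0.228%). Fewer libraries gave 0 higher and 2 lower in the single-cell protocol libraries alone (background 5.34% and 1.39%) and 1 higher and 3 lower without GFP- library 2 (background 8.8% and 6.04%). Background shares of lower genes were 1.34% without GFP+ library 19, 2.16% without GFP+ library 4 and 1.31% without GFP- library 20, each beside 2 of the 31, and 11.6% of genes were higher without GFP- library 5, beside 1 of the 31. The median of the 31 genes lay below that of all tested genes under TMM, RLE, upper-quartile, total count and general T cell gene scaling. Scaling moves both medians together, so their order was nearly fixed and the scalings are not separate checks of it. Between single comparisons of a GFP+ with a GFP- library of its protocol, the median of the 31 genes had an SD of 0.25.

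**Figure D5:**
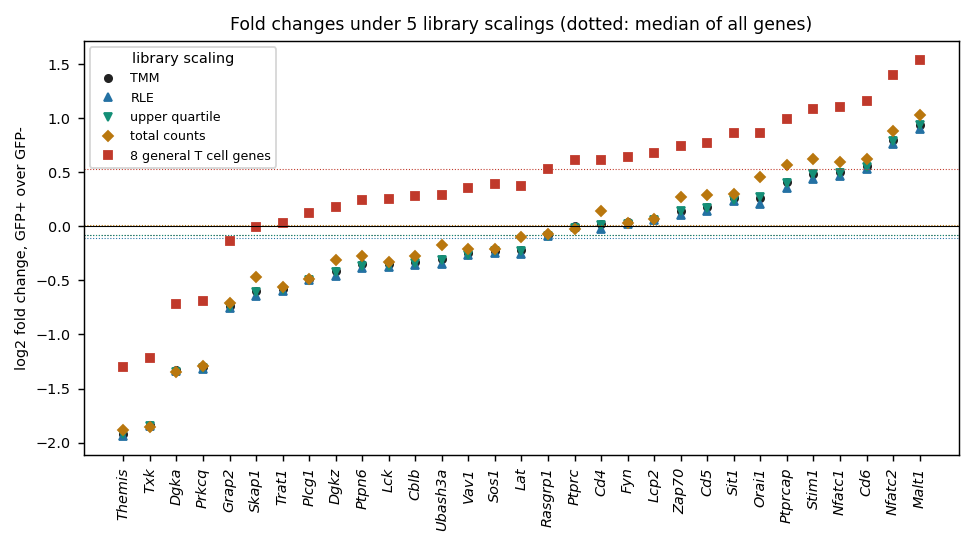
Log2 fold changes, GFP+ over GFP- Treg, of the 31 genes under 5 ways to scale libraries, with dotted lines at the median of all tested genes. Scaling to general T cell genes (red squares) lifts all values together, while Themis, Txk, Dgka and Prkcq stay lowest and Malt1 highest in each scaling.

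A list of 96 further genes of TCR signalling, which shares 6 genes with the general T cell list, gave 76 tested genes. Of these, 5 were higher and 5 lower in GFP+ Treg (6.58% each, beside 9.81% and 3.68% of all tested genes), with a median log2 fold change of -0.07. Lowest was Evl, an actin regulator of the Ena/VASP family, with 39.3, 21.6 and 19.3 CPM in GFP+ libraries 19, 1 and 4, against 228, 141 and 120 CPM in GFP- libraries 20, 2 and 5 (-2.63 ± 0.23, edgeR adjusted p = 0.000205). Tespa1, a partner of the inositol trisphosphate receptor (-1.40 ± 0.37), the ubiquitin ligase Traf6 (-1.04 ± 0.24) and Stim2, the second calcium sensor (-0.84 ± 0.21), also fell. Stim2 had 39.3, 20.4 and 24.3 CPM in GFP+ and 68.6, 44.7 and 35.9 CPM in GFP- libraries, each GFP+ value below the GFP- values of its protocol, where those of Stim1 lay above.

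Higher in GFP+ Treg were the scaffold Gab2 (3.08 ± 0.56), the receptor phosphatase Ptprj (CD148, 1.47 ± 0.32), the ubiquitin ligase Rnf128 (GRAIL), known from T cell anergy (1.16 ± 0.28), the adaptor Sla2 (0.92 ± 0.23) and Dok1 (0.82 ± 0.23). Sla2, which limits surface TCR, had 64.0, 109 and 113 CPM in GFP+ and 41.3, 45.4 and 60.9 CPM in GFP- libraries. Gab2 was near its limit of detection, at 1.98, 0.771 and 1.37 CPM in GFP+ and 0.225, 0.205 and 0 CPM in GFP- libraries. Gab2, Ptprj and Dok1 are also known from myeloid cells, and macrophage markers rose in the same libraries (17 of 17 tested genes). The part of macrophages in these values was not tested. Beside the shares of all tested genes that were higher and lower, the list gave 0 higher and 1 lower gene without GFP+ library 19 (5.34% and 1.34%). It gave the same without GFP- library 20 (5.55% and 1.31%), which is the same comparison of the single-cell protocol libraries. It gave 2 and 1 without GFP+ library 1 (6.49% and 1.78%) and 1 and 1 without GFP+ library 4 (7.63% and 2.16%). It gave 2 and 3 without GFP- library 2 (8.8% and 6.04%) and 6 and 9 without GFP- library 5 (11.6% and 7.51%).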

How the data were processed

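RNA of sorted Treg was sequenced in 6 libraries. As deposited by the authors, a table for each protocol holds unnormalized counts per Entrez gene. The submitters' processing notes name Subread, featureCounts, edgeR and mm9. Versions, annotation and the strand setting are not stated there, so reads of overlapping or antisense genes may be shared. Per the file headers, log2 RPKM values per library were also deposited, and they served as an alternative.

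Counts were analysed with edgeR 4.0.16 in R 4.3.3. The filter filterByExpr, applied by population, left 10523 of 26286 genes. TMM scaling used whole library totals, and the quasi-likelihood F-test took the protocol as covariate (3 residual degrees of freedom) with Benjamini-Hochberg adjustment at 0.05. SE derive from the F statistic. No pair of replicates agreed within sampling noise (chi-square of at least 93.8 per degree of freedom). The scripts were tested on simulated data.

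Genes measured in the poly(A) pair only were compared by their ratio, with a size rule of 2-fold among 15639 genes with at least 10 counts. Depth was 15224051 to 28354321 counts, and intervals cover counting error only. Genes without a symbol (540) held 0.604% to 4.53% of counts and were kept. Alternatives covered scaling, filter, DESeq2 1.42.0, limma 3.58.1 (voom, and log2 RPKM), covariate and libraries left out. Chromosomes came from RefSeq (GRCm38.p6) by Entrez number for 24176 genes.

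The members, lists and tests were chosen with earlier results of these data known. Values per library were set for genes past the threshold, receptor and coreceptor genes, Lck, Fyn and Zap70, and for up to 5 called genes in each direction among the 96 further genes. Dgka, Nfatc2 and the other members with values per library were added after their values were seen. Some genes of the lists are counted but not reported by name here.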

Additional observations from a re-analysis of the deposited data

How the results depend on the processing

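The 31 fold changes were recomputed under 17 alternatives, 527 values in all, of which 456 kept their direction and their side of the threshold, 17 lost and 19 gained the call, and 35, all of genes that did not pass, changed sign. Themis lost its call in 1 of the 17, without the protocol covariate (adjusted p = 0.265), and the cause of the changes below was not tested.

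With TMM, 1032 genes were higher and 387 lower, with 1 and 3 among the 31 genes and 5 and 5 among the further TCR genes. Scaling to general T cell genes gave 2845 and 164 over all genes, 5 higher among the 31 with a median of 0.39, and 22 and 1 further genes. RLE size factors gave 3 further genes higher. Upper-quartile scaling gave 2 of the 31 higher. Total counts gave 0 of the 31 higher and 3 further genes lower. DESeq2 gave 714 lower over all genes, 2 of the 31 higher and 8 further genes lower. limma-voom and limma on the log2 RPKM values each gave 2 of the 31 higher. Without the protocol covariate, 115 and 24 of all genes, 0 and 0 of the 31 and 0 and 0 further genes were called. The single-cell protocol libraries alone gave 562 and 146 of all genes, 0 of the 31 higher, and 0 and 1 further genes. Leaving out 1 library at a time gave 562 to 1225 higher and 138 to 790 lower over all genes, 0 to 1 higher and 1 to 6 lower among the 31 with medians of -0.33 to -0.08, and 0 to 6 higher and 1 to 9 lower further genes.

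The populations share no replicate number, and no label pairs their libraries. A replicate block of consecutive title numbers (19 with 20, 1 with 2, 4 with 5), chosen after seeing the data and stated by no label, gave 1658 and 1263 over all genes, 3 and 6 of the 31, and 12 and 11 further genes. Among the 31 it added Dgka (-1.31, edgeR adjusted p = 0.00195), Nfatc2 (0.79, 0.00932), Grap2 (-0.76, 0.00641), Trat1 (-0.56, 0.0199) and Stim1 to the 4 calls with TMM and the protocol covariate.

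Changes of sign with scaling to general T cell genes were Cblb 0.28, Dgkz 0.18, Lat 0.38, Lck 0.25, Plcg1 0.13, Ptpn6 0.25, Rasgrp1 0.53, Sos1 0.39, Trat1 0.028, Ubash3a 0.29 and Vav1 0.35. Cd4 was at -0.022 with RLE, -0.022 with DESeq2 and -0.037 with log2 RPKM. Ptprc was at -0.0055 with RLE, -0.014 with upper-quartile scaling, -0.028 with total counts, -0.0054 with DESeq2 and -0.12 with log2 RPKM, where Fyn was at -0.10 and Lcp2 at -0.020. Leaving out 1 library at a time changed the sign of 8 genes, with Cd4 from -0.10 to 0.13, Fyn from -0.35 to 0.34, Lcp2 from -0.19 to 0.40, Orai1 from -0.15 to 0.66, Ptprc from -0.47 to 0.41, Rasgrp1 from -0.33 to 0.23, Sit1 from -0.091 to 0.48 and Sos1 from -0.53 to 0.10.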
